A study of Mus musculus with 18 samples.

Results

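The Hox clusters were described through the peaks of 2 chromatin proteins, CTCF and SMC1A, in CD4 and CD8 double-positive (DP) thymocytes of the mouse. The members were 38 Hox genes of the 21883 protein-coding genes in the annotation: 10 Hoxa genes (Hoxa2 to Hoxa13), 10 Hoxb genes (Hoxb1 to Hoxb13), 9 Hoxc genes (Hoxc4 to Hoxc13) and 9 Hoxd genes (Hoxd1 to Hoxd13). A peak belonged to them when it lay within 100 kb of the outermost members of a cluster or between them, a rule that uses position alone. In mm10 these 4 stretches are chr6:52062417-52360880 (Hoxa), chr11:96094316-96468254 (Hoxb), chr15:102821131-103136856 (Hoxc) and chr2:74568225-74865142 (Hoxd). Peaks of 1 protein that overlapped between lists were merged, which gave 28 SMC1A regions of 35221 in the genome and 82 CTCF regions of 63947.

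The samples were primary DP cells sorted from the thymus of WT mice and of Satb1 KO mice, and all of them, WT included, carry the treatment tamoxifen. Chromatin was profiled by CUT&RUN, in which an antibody tethers a nuclease to its target so that DNA beside the bound protein is cut out and sequenced. The 7 peak lists used were SMC1A in 2 WT and 2 KO samples, and CTCF in 1 WT sample (replicate 1) and 2 KO samples. Not analysed here were the second WT CTCF sample and those of H3K27ac, IgG and input. Titles of the KO samples begin with vKO, a prefix that the titles do not explain. Replicate 1 and replicate 2 carry batch 1 and batch 2 in the labels, which name no age, strain or Cre driver and do not say whether replicates came from separate animals. A p-value therefore weighs only how far these samples differ among themselves, and that spread may be technical.

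Hox genes encode homeodomain transcription factors that give cells their position along the body axis, and their order along each cluster follows the order in which they are used. Several of them, among them Hoxa9, Hoxa10 and Hoxb4, also act in blood stem and progenitor cells, and the clusters are widely covered by Polycomb repression in cells that do not use them. CTCF is a DNA-binding protein that stops the cohesin ring, of which SMC1A is a core subunit, and CTCF sites inside Hox clusters are known as boundaries between active and repressed chromatin. SATB1, a nuclear protein that thymocytes hold in large amounts, folds chromatin around genes of T cell development.

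For SMC1A, the WT lists held 19882 and 20638 peaks and the KO lists 28151 and 20689 (replicates 1 and 2). For CTCF, the WT list held 38989 and the KO lists 55750 and 22928. Read depth is not in the lists. A proxy, the lowest 1% of local backgrounds in units of the pile-up (reads or fragments), was between 0.384 and 0.633 for the SMC1A lists, highest in KO replicate 1, and 1.02, 1.82 and 3.28 for the CTCF lists of WT, KO replicate 1 and KO replicate 2. Both lists of KO replicate 1 were thus the longest of their protein, and their part in the differences given here was not tested. Peak lists hold no expression values, so neither the loss of Satb1 nor the markers of DP cells could be checked in them.

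Promoter sequences show where peaks reached the start of a Hox gene. RefSeq (GRCm38.p6) gave promoters for 22 of the 38 members, 24 promoters in all, and a peak of at least 1 list overlapped 7 of them, where 35.6% of all promoters of the same length in that table were overlapped. The 250 bases before the start site are printed for 4 members, on the gene's strand, with the bases inside a peak in capitals. Hoxa3 is the promoter that 2 CTCF lists reached, Hoxa10 has the CTCF peak with the highest −log10 q of the 7, Hoxa13 lies beside a CTCF peak of WT alone, and Hoxb4 is the promoter under an SMC1A peak.
Hoxa3 promoter, chr6:52213068-52213317: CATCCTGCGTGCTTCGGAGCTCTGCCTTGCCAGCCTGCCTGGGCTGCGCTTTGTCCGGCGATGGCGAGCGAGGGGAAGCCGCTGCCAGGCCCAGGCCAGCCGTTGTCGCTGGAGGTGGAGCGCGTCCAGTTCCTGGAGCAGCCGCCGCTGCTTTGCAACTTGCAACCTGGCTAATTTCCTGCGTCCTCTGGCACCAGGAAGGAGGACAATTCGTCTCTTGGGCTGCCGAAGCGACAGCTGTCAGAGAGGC
Hoxa10 promoter, chr6:52240855-52241104: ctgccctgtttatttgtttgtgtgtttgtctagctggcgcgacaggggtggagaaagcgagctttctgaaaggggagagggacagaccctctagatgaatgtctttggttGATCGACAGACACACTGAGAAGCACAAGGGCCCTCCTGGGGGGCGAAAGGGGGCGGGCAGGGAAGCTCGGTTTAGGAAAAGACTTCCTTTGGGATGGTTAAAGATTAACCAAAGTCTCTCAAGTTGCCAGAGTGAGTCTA
Hoxa13 promoter, chr6:52260881-52261130: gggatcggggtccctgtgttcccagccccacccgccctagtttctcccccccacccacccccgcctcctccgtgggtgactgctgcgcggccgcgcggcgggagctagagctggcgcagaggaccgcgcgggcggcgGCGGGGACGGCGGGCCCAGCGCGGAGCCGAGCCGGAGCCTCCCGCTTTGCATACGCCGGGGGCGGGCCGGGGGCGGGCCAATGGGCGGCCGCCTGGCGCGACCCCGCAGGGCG
Hoxb4 promoter, chr11:96318017-96318266: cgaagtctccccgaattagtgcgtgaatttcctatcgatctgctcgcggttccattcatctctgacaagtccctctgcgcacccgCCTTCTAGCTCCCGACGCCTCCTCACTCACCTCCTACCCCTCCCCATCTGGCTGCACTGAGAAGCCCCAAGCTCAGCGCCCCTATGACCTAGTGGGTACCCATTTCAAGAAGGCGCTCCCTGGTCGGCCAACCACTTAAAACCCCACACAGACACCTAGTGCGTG
The CTCF peaks over the Hoxa3 promoter covered all 250 bases and came from WT (−log10 q 3.13) and KO replicate 1 (15.8). At Hoxa10 the peak of KO replicate 1 (−log10 q 37.7) covered the 140 bases nearest the start, and at Hoxa13 the WT peak (−log10 q 6.00) covered the nearest 113. At Hoxb4 the SMC1A peak of KO replicate 1 (−log10 q 1.68) covered the nearest 165 bases. Hoxa7, Hoxb8 and Hoxd8 were each reached by a CTCF peak of KO replicate 1 alone, with −log10 q of 1.59, 2.74 and 4.44. The core of the CTCF motif, CCANNAGNNGGC, searched on both strands with overlaps allowed, was in 0 of the 24 Hox promoters and in 2.43% of all 32851 promoters of 300 bases.

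CTCF peaks were dense over Hoxa and Hoxb and sparse over Hoxc. Counted per 100 kb, Hoxa held 6.70 CTCF peaks in the WT list, then 8.71 (KO replicate 1) and 2.35 (KO replicate 2). Hoxb held 5.35, 6.69 and 2.67 in the same order, and Hoxd 2.02, 3.37 and 1.01. Hoxc held 0.950, 1.90 and 0.317, below the 1.98, 2.80 and 1.16 found within 100 kb of all protein-coding genes in the same lists. The order of Hoxa or Hoxb first, then Hoxd, then Hoxc was the same in all 3 lists, as the plot of peak density shows.

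Over the 4 clusters the WT lists held 15 and 20 SMC1A peaks and the KO lists 20 and 13. Hoxa held 6, 6, 7 and 4 of them in WT replicates 1 and 2 and KO replicates 1 and 2, and Hoxb held 6, 9, 8 and 6. Hoxd held 2, 4, 4 and 3, and Hoxc held 1, 1, 1 and 0. Over the 4 clusters together this came to 1.17, 1.56, 1.56 and 1.01 SMC1A peaks per 100 kb, beside 1.01, 1.05, 1.42 and 1.05 around all protein-coding genes. The Hox value was the higher in 3 of the 4 lists and the lower in KO replicate 2. The counts of the 2 genotypes overlapped in every cluster, and KO replicate 2 had no SMC1A peak over Hoxc.

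**Figure D1:**
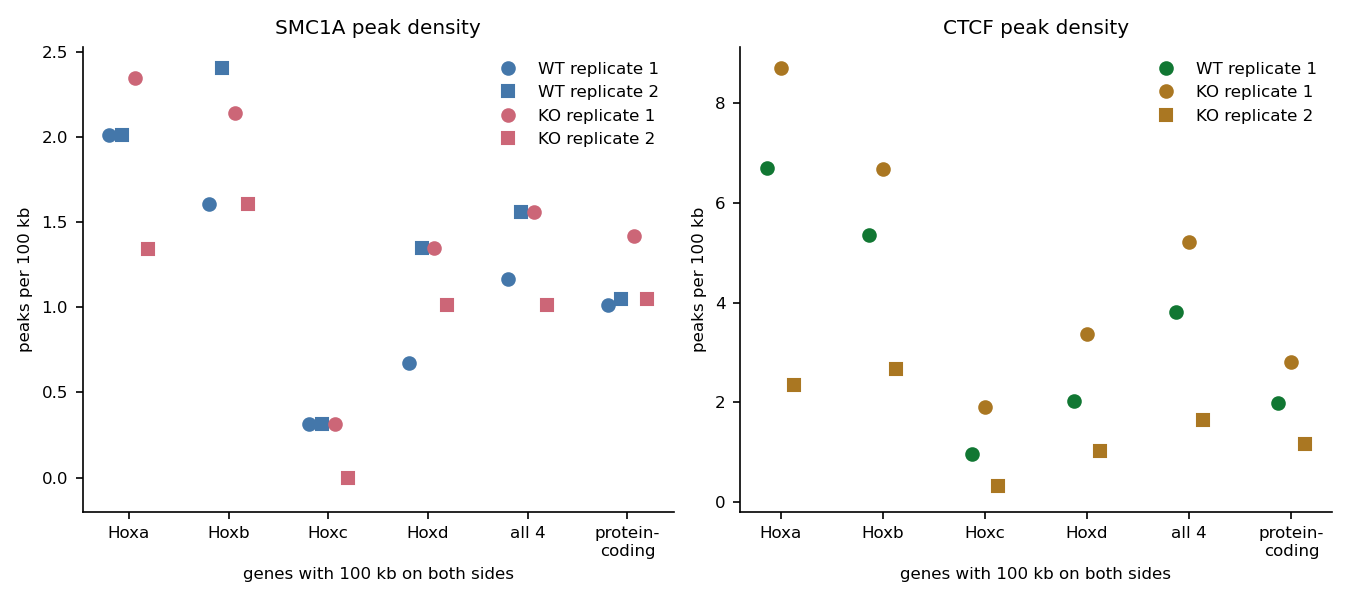
Peaks per 100 kb (vertical axes, different for the 2 proteins) over each Hox cluster with 100 kb on both sides, over the 4 clusters together and within 100 kb of all protein-coding genes, with 1 point per peak list. CTCF points over Hoxa lie between 2.35 and 8.71 and over Hoxc between 0.317 and 1.90, and WT and KO points mix for both proteins.

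Of the 82 Hox CTCF regions, 15 (18.3%) were held by all 3 lists, against 27.0% of CTCF regions in the genome, and 47 (57.3%) by 1 list, against 51.6%. Of the 28 Hox SMC1A regions, 9 (32.1%) were held by all 4 lists, against 35.0% in the genome, and 12 (42.9%) by 1 list, against 35.8%. Of the same 28, 23 (82.1%) overlapped a CTCF peak of any list, against 89.8% in the genome. In the converse count, 22 of 82 Hox CTCF regions (26.8%) overlapped an SMC1A peak, against 45.6% in the genome; this difference was not tested. Among the 15 CTCF regions of all 3 lists the overlap was 14, where the genome gives 89.8%, and 8 of the 15 overlapped an SMC1A peak of all 4 lists, where the genome gives 58.0%. An SMC1A peak of at least 1 list thus lay at all but 1 of the Hox CTCF regions that every list held, a share near that of the genome. At the CTCF region in Ttll6, in the flank of Hoxb, it came from 1 SMC1A list, WT replicate 2.

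**Figure D2:**
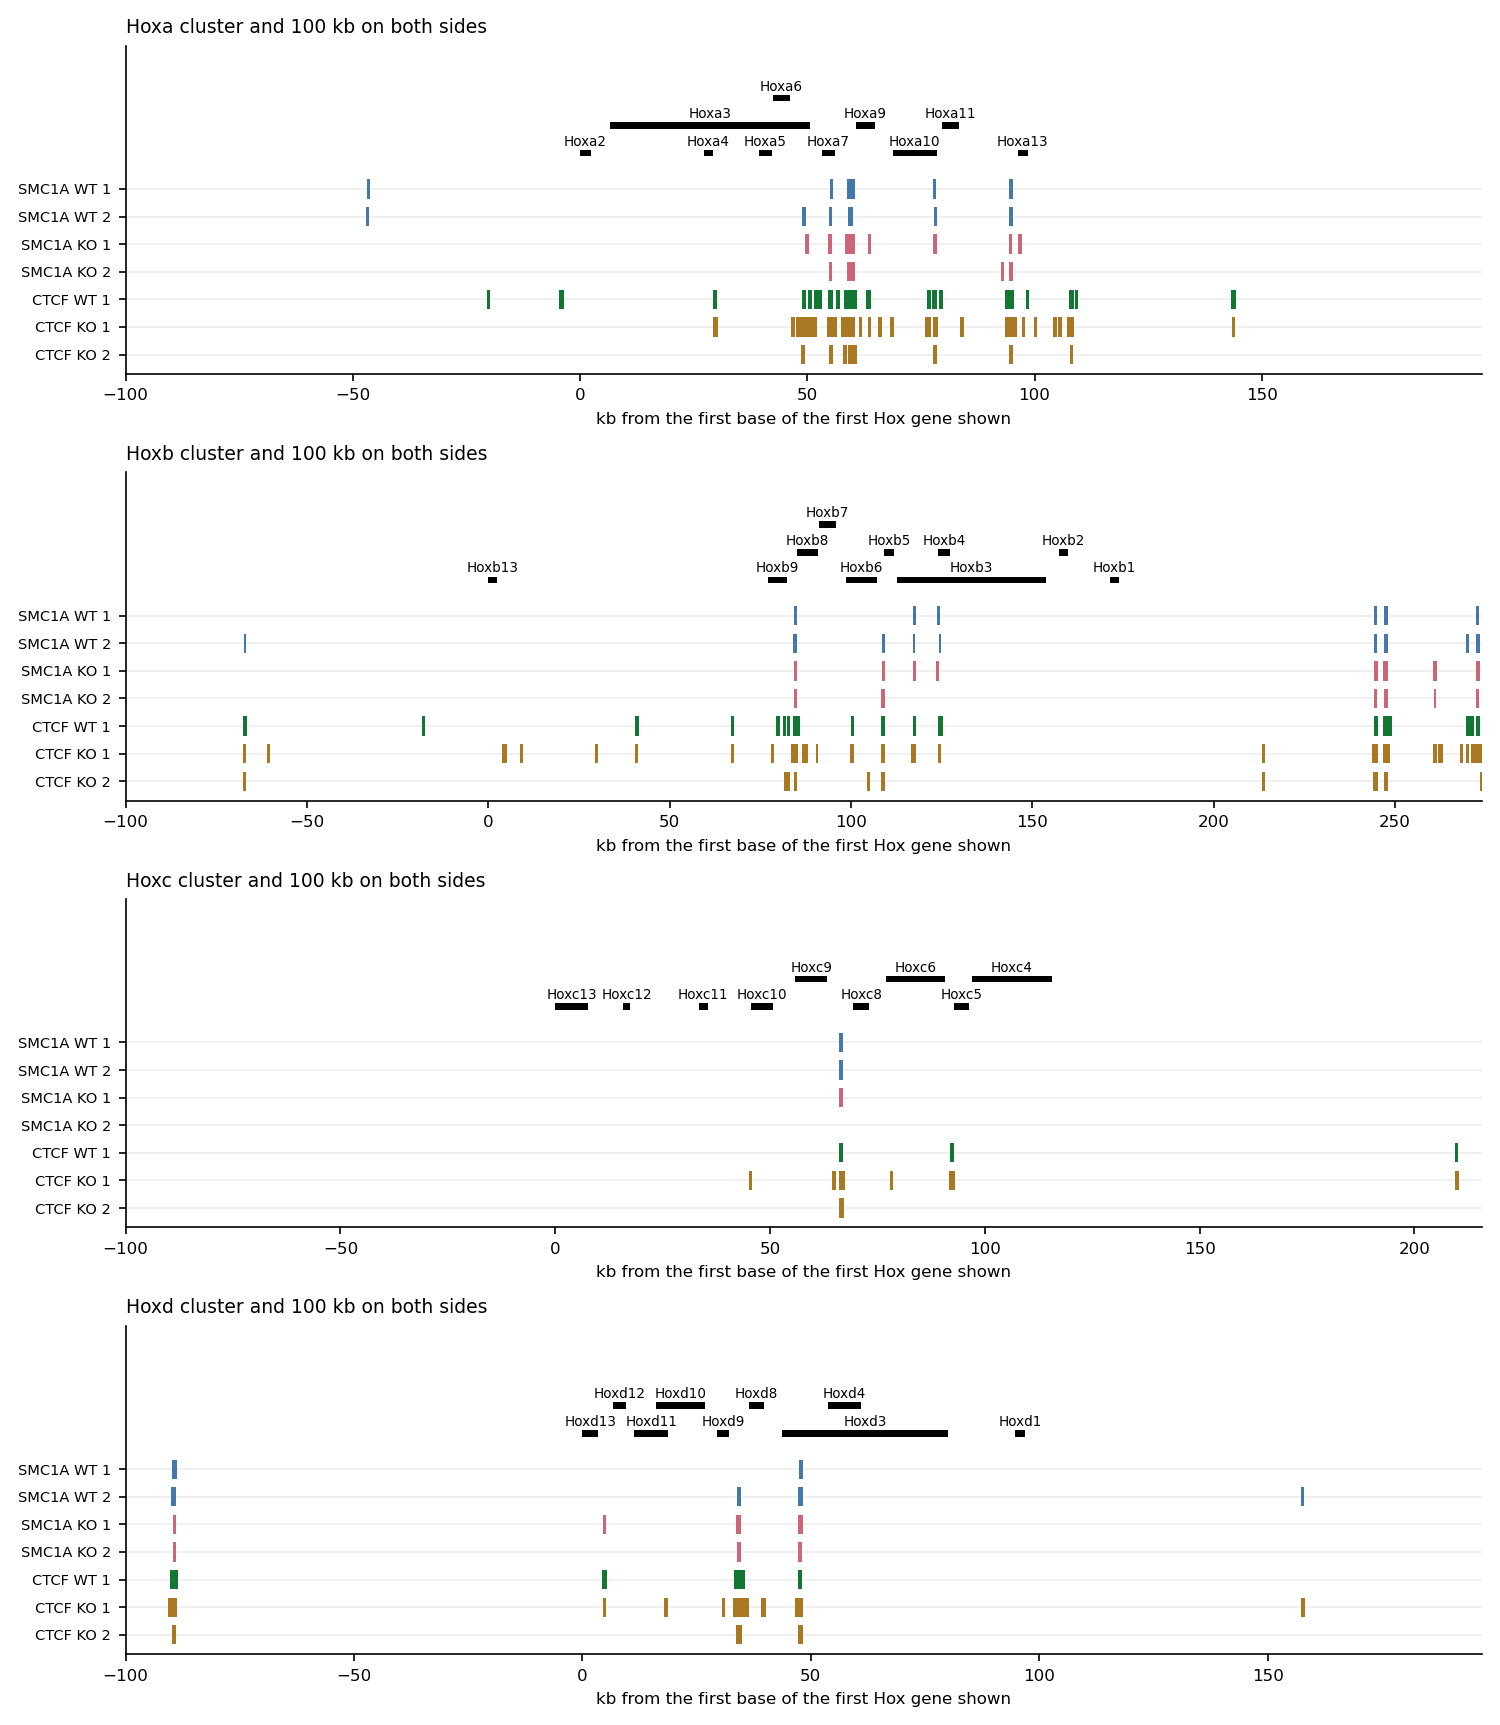
Peaks of the 7 lists (rows, named by protein, genotype and replicate number) along each Hox cluster with 100 kb on both sides, in kb from the first base of the first Hox gene shown; black bars are gene bodies, and each peak is drawn 0.25 kb wider on each side so that it can be seen. CTCF peaks crowd between Hoxa3 and Hoxa13 and around Hoxb9 to Hoxb3, while Hoxc13 to Hoxc11, Hoxd4, Hoxd1, Hoxb2 and Hoxb1 lie in stretches with no peak of any list.

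In Hoxa, both proteins were held by all lists at 3 places among the middle and posterior genes. The region with the deepest CTCF and SMC1A pile-ups of the cluster lay between Hoxa7 and Hoxa9, at chr6:52220179-52223139 for CTCF, whose last bases reach Hoxa9, and chr6:52220964-52222709 for SMC1A. The pile-up is the number of reads, or of fragments if the caller counted those, stacked at the summit; which of them was counted is not stated in the files. Pile-ups here and below are not corrected for depth, and the background proxy above was higher in both KO CTCF lists than in WT. The CTCF pile-up was 36 in the WT list and 109 and 36 in the KO lists. The SMC1A pile-up there was 23 and 19 in WT and 17 and 14 in KO. The 2 WT values lay above both KO values, and since pile-ups rise with depth, which differed between lists, no test was made of them. A lower pile-up can be fewer cells with the protein bound or less of it in each cell, which pooled cells cannot tell apart.

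The second place lay between Hoxa11 and Hoxa13, 1633 bp from Hoxa13, the most posterior gene of the cluster, at chr6:52257068-52257384 for SMC1A and chr6:52256820-52258344 for CTCF. SMC1A pile-ups there were 14 and 18 in WT and 17 and 10 in KO, which overlap, and CTCF pile-ups were 27 in WT and 64 and 28 in KO. The third lay inside Hoxa7, at chr6:52217125-52217820 for SMC1A, with pile-ups of 8 and 6 in WT and 7 and 8 in KO. It was a weak region: the lowest −log10 q of its 4 SMC1A peaks was 1.50, in WT replicate 2, and 1 of the 4 lists held it at a −log10 q of 5 or more. CTCF over Hoxa7 (chr6:52217027-52217903) had pile-ups of 13 in WT and 30 and 16 in KO.

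Another 3 CTCF regions of Hoxa were in all 3 lists. Inside Hoxa3 (chr6:52211291-52212307) the pile-ups were 22 in WT and 43 and 23 in KO, with SMC1A in 2 lists. Inside Hoxa10 (chr6:52240178-52240994) they were 13 in WT and 41 and 28 in KO, with an SMC1A region (chr6:52240366-52240665, pile-ups 9 and 8 in WT and 11 in KO replicate 1) that KO replicate 2 lacked. The region 9772 bp beyond Hoxa13 (chr6:52270326-52270932; pile-ups 10, 25 and 17) was the exception among the 15: no SMC1A list had a peak there. The 5 Hoxa genes without any peak over their body were Hoxa2, Hoxa4, Hoxa5, Hoxa6 and Hoxa11.

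In Hoxb, the place where all 7 lists met inside the cluster was the interval between Hoxb9 and Hoxb8, with the SMC1A region chr11:96278526-96279276 at 402 bp from Hoxb8. SMC1A pile-ups were 23 and 20 in WT and 28 and 19 in KO, so the genotypes overlapped. The CTCF region there, chr11:96277955-96279400, had the highest pile-ups of any Hox CTCF region in each list, at 44 in WT and 135 and 51 in KO. By −log10 q, which weighs local background, it led in KO replicate 1 alone. The CTCF region in Lnpk, beside Hoxd, was higher in WT (42.4 against 30.1), and the region beside Hoxb5 in KO replicate 2 (20.7 against 15.0). The next CTCF region in all lists lay 251 bp from Hoxb5, between Hoxb6 and Hoxb5 (chr11:96302775-96303503), with pile-ups of 29 in WT and 74 and 36 in KO. SMC1A at that place (chr11:96302957-96303412) was absent from WT replicate 1 and had pile-ups of 7 in WT replicate 2, 21 in KO replicate 1 and 6 in KO replicate 2. It stood high in the longest list alone.

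Both proteins were also in all lists at a pair of neighbouring regions beyond the 3′ end of Hoxb, between Hoxb1 and Skap1, which encodes an adaptor of T cell receptor signalling. At chr11:96438666-96439217, 70674 bp from Hoxb1, the SMC1A pile-ups were 9 and 13 in WT and 24 and 11 in KO. At chr11:96441272-96442173, 73481 bp from Hoxb1, they were 20 and 16 in WT and 30 and 19 in KO. In both, KO replicate 1 was highest and KO replicate 2 lay within or near the WT values. The CTCF regions at the pair, chr11:96438091-96439324 and chr11:96441264-96442646, had pile-ups of 28 and 27 in WT, 96 and 86 in KO replicate 1, and 37 and 27 in KO replicate 2. Another SMC1A region of all 4 lists lay in Skap1 itself (chr11:96466786-96467351), with pile-ups of 16 and 20 in WT and 22 and 8 in KO. At the other end of the window, a CTCF region of all 3 lists lay in Ttll6, a tubulin-modifying enzyme (chr11:96126928-96127446; pile-ups 21, 55 and 25).

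In Hoxd, the 2 SMC1A regions of all 4 lists lay in Hoxd3 and in Lnpk, a protein of the endoplasmic reticulum, which lies 5′ of the cluster. Over Hoxd3 (chr2:74715653-74716328) the SMC1A pile-ups were 14 and 16 in WT and 18 and 12 in KO, and CTCF (chr2:74715099-74716272) had 13 in WT and 59 and 29 in KO. In Lnpk (chr2:74578370-74579243), 89229 bp from Hoxd13, the SMC1A pile-ups were 11 and 11 in WT and 12 and 9 in KO, the narrowest range of the 9 regions after Hoxa7. CTCF in Lnpk (chr2:74578125-74579441) was strong in WT and KO replicate 1, with pile-ups of 41 and 62 and −log10 q of 42.4 and 60.9, and barely called in KO replicate 2, with 18 and 1.32. Between Hoxd9 and Hoxd8 a CTCF region of all 3 lists (chr2:74701513-74703547; pile-ups 34, 73 and 32) held an SMC1A region (chr2:74702026-74702655) that was absent from WT replicate 1 and had pile-ups of 6, 13 and 9 in the other 3 lists.

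Hoxc had 1 SMC1A region in its whole 316 kb, at chr15:102987416-102987851 between Hoxc9 and Hoxc8. Its pile-ups were 7 and 8 in WT and 9 in KO replicate 1, and KO replicate 2 had no peak. It sat on the CTCF region of Hoxc that all 3 lists held (chr15:102987345-102988317), with pile-ups of 20 in WT and 42 and 29 in KO. With the −log10 q of its SMC1A peaks between 1.92 and 3.12, it was among the weakest regions described here.

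**Figure D3:**
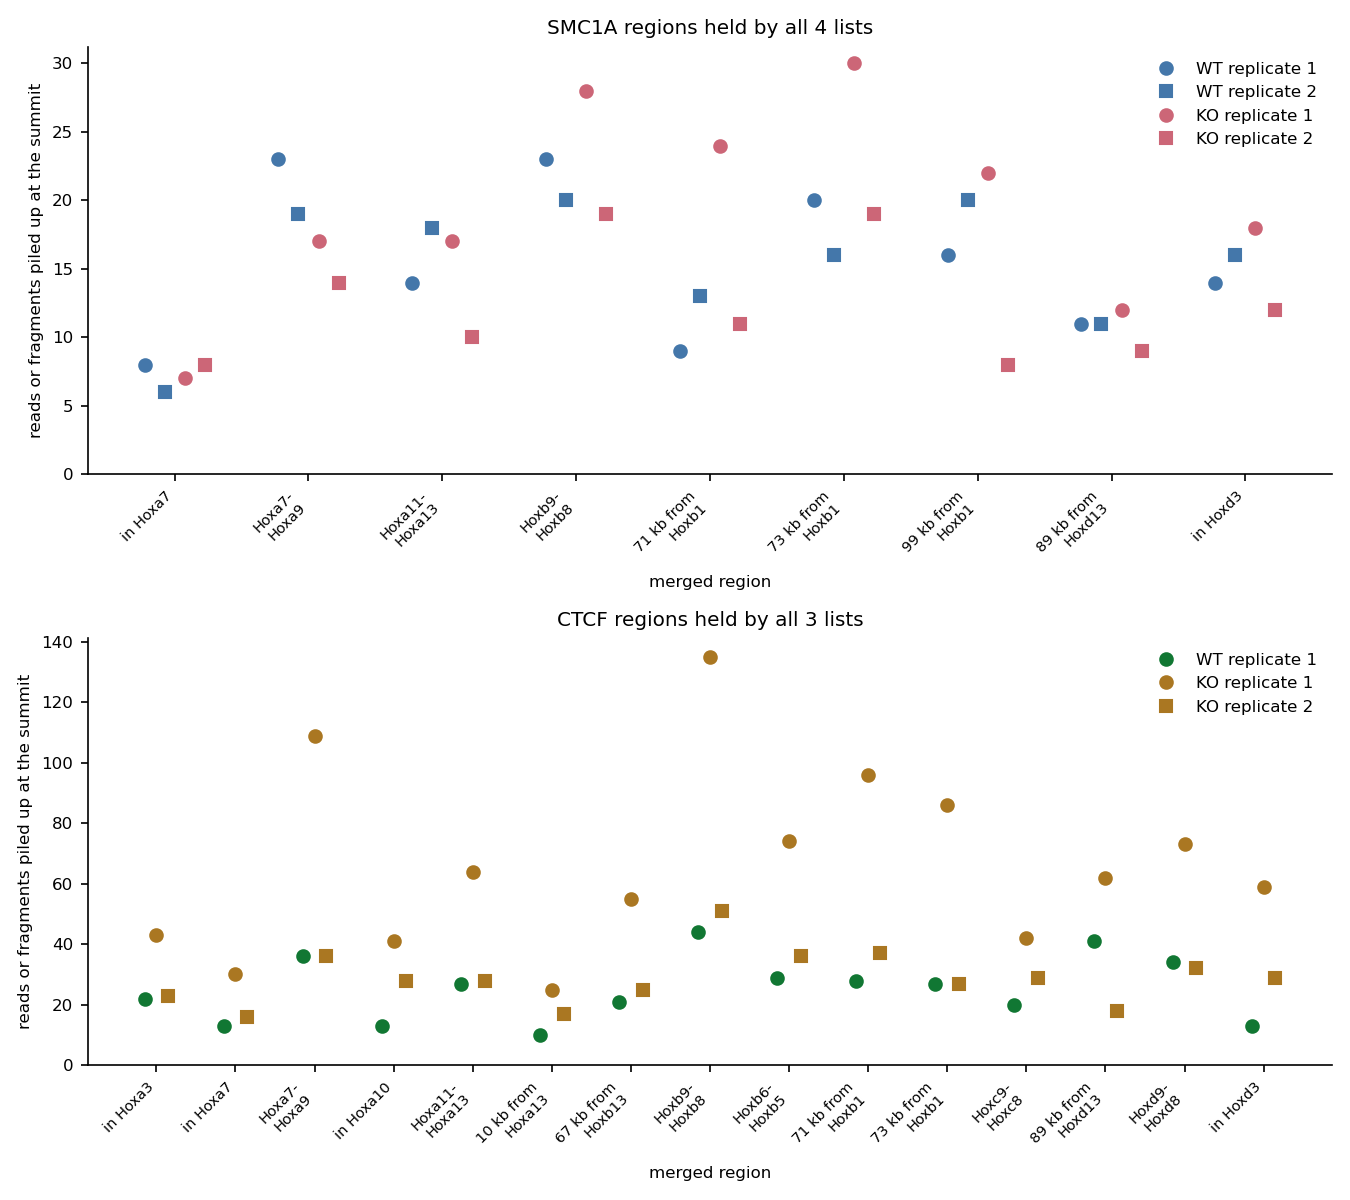
Reads or fragments piled up at the summit (vertical axes from 0, different for the 2 proteins) in each list, for the 9 SMC1A regions of all 4 lists and the 15 CTCF regions of all 3 lists, in order along Hoxa, Hoxb, Hoxc and Hoxd; values are not corrected for depth. KO replicate 1 is the highest CTCF list in all 15 regions, and its SMC1A values reach 30, while KO replicate 2 has the lowest SMC1A value in 6 of the 9 regions.

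The positions of the 2 proteins lay close together. From the median SMC1A summit of the 9 regions in all 4 lists, the nearest CTCF summit of WT was 37 to 191 bp away (median 55). The nearest summit of KO replicate 1 was 6 to 159 bp away (median 34), and that of KO replicate 2, present at 8 of the 9, was 10 to 308 bp away (median 42). Across lists, summits of the same region lay within 39 to 419 bp for SMC1A and within 27 to 274 bp for CTCF. By the place of the strongest summit, 4 of the 15 CTCF regions lay in the body of a member, 6 between members and 5 in the flanks.

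Of the 38 members, 16 had a CTCF peak of any list over the gene body, 8 had an SMC1A peak, and 22 had neither. CTCF thus reached 42.1% of the members and 62.9% of all protein-coding genes, and SMC1A 21.1% and 54.4%. The 57.9% without a peak compares with 36.4% of all protein-coding genes. Length differs between the 2 sets, since 32 of the 38 members but 7925 of the 21883 genes were of 10 kb or less. Among genes of 10 kb or less, 21 of 32 Hox genes (65.6%) and 60.0% of protein-coding genes had no peak. CTCF reached 34.4% of these Hox genes and 39.5% of protein-coding genes of that length, and SMC1A 15.6% and 33.5%; these differences were not tested. CTCF regions of all 3 lists reached 5 member bodies, namely Hoxa3, Hoxa7, Hoxa9, Hoxa10 and Hoxd3, and SMC1A regions of all 4 lists reached Hoxa7 and Hoxd3. At Hoxa9 only the edge of the merged CTCF region reached the gene, and KO replicate 2 had no CTCF peak over its body. Of the 9 Hoxc genes, Hoxc6 alone had a peak over its body, a CTCF peak.

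The longest stretches without a peak of any list covered the 3′ genes of Hoxb and Hoxd and the 5′ genes of Hoxc. In Hoxb, 88.4 kb (chr11:96319470-96407868) held Hoxb2 and Hoxb1, the most anterior members. In Hoxd, 109 kb (chr2:74716329-74825708) held the whole of Hoxd4 and Hoxd1. In Hoxc the stretch ran from the edge of the window for 145 kb (chr15:102821131-102966539) and held Hoxc13, Hoxc12 and Hoxc11, the most posterior members. In Hoxa the longest stretch, 54.4 kb to the edge of the window, held no member.

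Between genotypes, 1 SMC1A region was held by both WT lists and by neither KO list, out of 13 in both WT lists (7.69%, against 4.15% in the genome). It lay at chr11:96318390-96318888, at the start of Hoxb4, a regulator of blood stem cells, in an interval that the longer Hoxb3 transcript unit also spans. Pile-ups were 8 and 8, with −log10 q of 4.97 and 3.12. KO replicate 1 had an SMC1A peak of its own just before it (chr11:96318102-96318301, pile-up 5), and a CTCF region at the same place (chr11:96318518-96318949) was in WT and KO replicate 1, with pile-ups of 11 and 16. At a −log10 q of 5 or more neither WT list kept the SMC1A region.

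Also 1 SMC1A region was held by both KO lists and neither WT list, out of 12 in both KO lists (8.33%, against 13.1% in the genome). It lay at chr11:96454864-96455472 in the long non-coding RNA gene Gm11529, 87062 bp from Hoxb1 and 9254 bp from Skap1, with pile-ups of 11 and 7 and −log10 q of 4.37 and 2.78. A CTCF region at the same place (chr11:96455092-96455693) was in KO replicate 1 alone, with a pile-up of 35 and −log10 q of 18.8. Each of these shares is a single region, and the counts move with the lists that are used. Without WT replicate 1, 6 regions of WT were in neither KO list, without WT replicate 2 there were 3, and without KO replicate 1 there were 4. Without KO replicate 2, 6 regions were in KO and in neither WT list, and without WT replicate 2 and KO replicate 1 there were 4 and 2.

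For CTCF, 12 of the 45 WT regions (26.7%, against 18.9% in the genome) were in neither KO list, 6 of them in Hoxa and 6 in Hoxb. With 1 WT list there is no replicate check of this count. The 2 with the highest −log10 q in each of these clusters were, for Hoxa, in Hoxa13 (chr6:52260775-52260993, pile-up 12, −log10 q 6.00) and 4030 bp from Hoxa2 in the non-coding Hotairm2 (chr6:52158089-52158542, pile-up 16, −log10 q 4.40). For Hoxb they were in Hoxb4 (chr11:96319235-96319469, pile-up 11, −log10 q 5.89) and 74797 bp beyond Hoxb1 (chr11:96442904-96443118, pile-up 13, −log10 q 5.68). The region in Hoxb4 lay just past the SMC1A region of WT described above. Without KO replicate 1, 32 WT regions were in no KO list.

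In the other direction, 2 of 17 CTCF regions of both KO lists (11.8%, against 8.29% in the genome) were absent from WT. They were 39748 bp beyond Hoxb1 (chr11:96407869-96408173, pile-ups 17 and 21) and in Skap1 (chr11:96467769-96468163, pile-ups 15 and 18). No member's body held either. Without KO replicate 2 the number was 35, and without KO replicate 1 it was 4, since 33 of the 82 regions (40.2%) were in the list of KO replicate 1 alone, as were 24283 of the 63947 CTCF regions in the genome.

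Hox SMC1A peaks made up 0.754 and 0.969 of every 1000 peaks in the WT lists and 0.710 and 0.628 in the KO lists. The means were 0.862 ± 0.152 (SD, n = 2) and 0.669 ± 0.0581 (SD, n = 2), and both KO values lay below both WT values. The difference of −0.192 had an exact two-sided permutation p of 0.333, the smallest that 2 against 2 allows. Within batch 1 it was −0.0440 and within batch 2 −0.341. Leaving out WT replicate 2 gave −0.0850 and leaving out WT replicate 1 gave −0.300, and the difference turned to 0.0262 among peaks with −log10 q of 5 or more.

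The share of Hox SMC1A peaks that overlapped a CTCF peak of any list was 14 of 15 (93.3%) and 19 of 20 in the WT lists, and 18 of 20 (90.0%) and 12 of 13 (92.3%) in the KO lists. Over the genome the shares were 95.80% and 93.77% in the WT lists and 95.04% and 96.34% in the KO lists. The genome share was thus lower in KO in replicate 1 and higher in replicate 2, where the Hox share was lower in KO in both. Whether Hox and genome differ in this was not tested. The Wilson 95% intervals of the Hox shares in WT were 70.2 to 98.8% and 76.4 to 99.1%, those in KO 69.9 to 97.2% and 66.7 to 98.6%, and they cover counting error only. The Hox difference of −3.01 percentage points (exact two-sided permutation p = 0.333, n = 2 and 2) set apart 2 pairs of shares whose intervals all overlap. Batch 1 gave −3.33 and batch 2 gave −2.69, and leaving out KO replicate 1 gave −1.86. Against the WT CTCF list alone the difference was −9.36 points, within 20 kb of the members −12.9 and over their bodies −12.5, with exact permutation p-values of 0.333, 0.333 and 1.

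SMC1A density was also compared in the 1 Mb windows that hold the clusters, most of whose sequence lies over 100 kb from any member. Limma was fitted over all 1276 windows tested, of which 76 (5.96%) passed an adjusted p of 0.05. The Hoxa window had 13 and 15 peaks of SMC1A in the WT lists and 19 and 12 in the KO lists (log2 change −0.14 ± 0.21 SE, adjusted p = 0.784). The Hoxb window held 21 and 28 in WT and 31 and 25 in KO (−0.06 ± 0.16, adjusted p = 0.929). Neither passed. In 500 kb windows the log2 changes were −0.39 for Hoxa and −0.51 for Hoxb, with limma adjusted p-values of 0.518 and 0.280. The Hoxb value at 1 Mb changed sign without WT replicate 2 (0.12) or KO replicate 1 (0.01). The window of Hoxc13 to Hoxc6 held 28 and 31 in WT and 30 and 26 in KO (−0.33 ± 0.15). Within 100 kb of the Hoxc genes there were 1 and 1 in WT and 1 and 0 in KO. Most peaks of this window thus lay farther from those genes. The unadjusted limma p of the window was 0.0313 and its adjusted p 0.206, and the 500 kb window gave −0.11 (adjusted p = 0.870). The window of Hoxc6 to Hoxc4 held 11 and 14 in WT and 16 and 15 in KO (0.06 ± 0.21, adjusted p = 0.945), with a change of sign without WT replicate 1 (−0.08) or KO replicate 2 (−0.12). For Hoxd the WT lists held 2 and 5 peaks and the KO lists 5 and 3, under the minimum mean of 5. With a minimum of 2 its log2 change was −0.01 ± 0.39 (limma adjusted p = 0.994).

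Hox peaks were of middling or low rank in their own lists. No Hox SMC1A peak was in the top 10% of its list by −log10 q in any of the 4 lists, and the median Hox SMC1A peak stood at percentile 26.3 and 33.7 in WT and 49.7 and 50.9 in KO. For CTCF the median percentile was 40.9 in WT and 29.2 and 49.0 in KO, with 2, 4 and 0 Hox peaks in the top 10%. The highest rank of all was the CTCF region between Hoxb9 and Hoxb8 in KO replicate 1, at percentile 96.1, followed by the Hoxa7 to Hoxa9 region in the same list, at 94.4. Percentiles are read within a list and show no change between lists of different length.

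Genes that act with or on Hox genes were read from the same lists, with regions within 20 kb of their bodies. Around the 9 TALE cofactors of Hox proteins, 1 of 8 SMC1A regions of both KO lists was in neither WT list, and 0 of 8 regions of both WT lists were absent from KO. The 1 region, chr17:34571859-34572262, lay at the outer edge of the 20 kb beside Pbx2, whose body begins at 34592259. Around the 20 Polycomb and Trithorax genes, which repress or maintain Hox expression, 2 of 47 WT regions were absent from KO. The first lay inside Kmt2a, the Trithorax methyltransferase (−log10 q of 4.35 and 3.84). The second, chr11:101171347-101171662 (−log10 q of 6.27 and 9.15), lay near the outer edge of the 20 kb beside Ezh1. Ezh1 encodes a Polycomb methyltransferase, and its body begins at 101191115. Another 6 of 51 KO regions were absent from WT, among them regions near Ezh2, Dot1l, Kdm6b and Ring1. The region near Kdm6b, a histone demethylase that opposes Polycomb, had −log10 q of 11.2 and 6.76. All protein-coding genes gave 3.84% and 12.0% for the same counts, where the Polycomb and Trithorax genes gave 4.26% and 11.8%.

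Around the 16 neighbours of the clusters, 0 of 26 WT regions were absent from KO, against 3.84% around all protein-coding genes. Of their KO regions, 4 of 34 (11.8%) were absent from WT, near the 12.0% around all protein-coding genes. Of these, 3 lay near Skap1, the Gm11529 region among them, and 1 was shared by Snx11 and Cbx1. The strongest of the Skap1 regions reached −log10 q of 7.15 and 11.8 in KO. Around the Dlx and Evx homeobox genes 1 of 4 KO regions was absent from WT, inside Dlx2 and within 20 kb of Dlx1. Around the Cdx and ParaHox genes, which are sister genes of the Hox clusters, 0 of 2 were. The share to set beside both is the same 12.0%.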

How the data were processed

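CUT&RUN peak lists of SMC1A (4) and CTCF (3) were used, 1 per sample, grouped from the labels. Per the submitters' processing notes, MACS2, Bowtie2, Trimmomatic 1.24, deepTools, SAMtools and R 4.12 were used with mm10, with settings and any control not given in the sources used here. Deposited lists give the authors' fold enrichment (ratio) at each summit, −log10 p and −log10 q values, and each summit's offset in bp; the highest q was 0.0498. These are the authors' own peak values and were used to rank or filter peaks within a list.

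Peaks of 1 protein were merged at an overlap of 1 bp. Genes came from RefSeq (GRCm38.p6), whose table has no exons here, so exonic or intronic position is not stated. The number of reads or fragments at a summit and its local background were the pair that gives both the deposited fold and the deposited −log10 p in a Poisson model, met within 0.001 in 989 to 1000 of 1000 peaks per list. A list holds a region if 1 of its peaks overlaps it. Windows were tested with limma 3.58.1 (R 4.3.3) on log2((peaks + 0.5) per 1000000 peaks), for a mean of 5 or more peaks, with Benjamini-Hochberg adjustment. Python 3.11.15, pandas 2.3.3, numpy 2.4.6, scipy 1.17.1 and matplotlib 3.10.9 did the rest.

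The members, gene lists and rules were chosen with earlier results of these data known. Named regions were, per cluster, all SMC1A regions of 1 genotype, the 3 regions of all lists with the highest lowest −log10 q, CTCF regions of all lists in member bodies, and up to 2 CTCF regions of 1 genotype per direction; other regions were named after their values were seen. Promoters were printed for 4 members out of at most 6. Replicate numbers match the labelled batch and so pair samples; deviations of same-numbered SMC1A lists correlated at 0.0031 over 1276 windows. Tested on simulated data, the windows test called 149 of 181 windows changed 4-fold and 11 of 1072 unchanged ones, and 0 of 1264 with no change. Of the neighbour genes, Atp5mc3 was not matched. Of the Polycomb and Trithorax genes, some regions are not reported here.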

Additional observations from a re-analysis of the deposited data

How the results depend on the processing

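With peaks of −log10 q of 5 or more, SMC1A regions of both WT lists alone numbered 0 in place of 1, SMC1A regions of all 4 lists 5 in place of 9 and CTCF regions of both KO lists alone 0 in place of 2. The Hox density difference turned to 0.0262, and the Hoxa window to 0.19 and the Hoxc6 to Hoxc4 window to −0.0473 (log2). With lists cut to equal length, SMC1A regions of WT alone numbered 2 and of KO alone 0, CTCF regions of WT alone 6 and of KO alone 1, and the Hoxb window turned to 0.0428. With summits within 200 bp, CTCF regions of WT alone numbered 20 and of KO alone 1. Within 20 kb of the genes, SMC1A regions of KO alone numbered 0 and of all lists 5, and CTCF regions of KO alone 0. Over gene bodies alone, SMC1A regions of KO alone numbered 0 and of all lists 2, and CTCF regions of all lists 5, of WT alone 5 and of KO alone 0. With library medians set to 0 the Hoxc6 to Hoxc4 window turned to −0.0298. The density difference was −0.0824 within 20 kb and −0.0807 over gene bodies. The share at CTCF kept its sign in every alternative, between −12.9 and −1.86 points. In 500 kb windows the Hoxa, Hoxb, Hoxc13 to Hoxc6 and Hoxc6 to Hoxc4 values were −0.39, −0.51, −0.11 and 0.08, none past the threshold. The cause of these changes was not tested. Some settings counted fewer peaks or a smaller area, while others matched summits or centred libraries in another way.

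With each replicate left out in turn, SMC1A regions of WT alone ranged from 1 to 6 and of KO alone from 1 to 6, and CTCF regions of all lists from 17 to 32, of WT alone from 13 to 32 and of KO alone from 4 to 35. The Hoxa window ranged from −0.24 to −0.04, the Hoxb window from −0.23 to 0.12, the Hoxc13 to Hoxc6 window from −0.45 to −0.21 and the Hoxc6 to Hoxc4 window from −0.12 to 0.23, with no adjusted p under 0.05 in any of them. Without WT replicate 1 no WT CTCF list is left, so CTCF regions of WT alone and of KO alone have no value there, and 17 regions were in both KO lists.

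The replicate block, which compares within batches, left the density difference at −0.192 and the share difference at −3.01 points, each with an exact p of 0.5, the smallest that 2 pairs allow. The windows had adjusted p-values of 0.779, 0.930, 0.206 and 0.943 with the block in limma, and it changed no call. Over all windows 80 passed with the block and 76 without; 4 passed with library medians at 0, 0 (164 at an unadjusted p under 0.05) with lists of equal length, 18 at −log10 q of 5 or more, 25 at a mean of 2 or more peaks, 60 of 1635 with 500 kb windows, and 15 to 40 with a replicate left out. The lists give no depth per sample, and a region missing from a list is one with no peak past the threshold of the caller there.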

Other observations

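The microRNA genes of the Hox clusters are short, and how many microRNA genes elsewhere lack a peak was not counted. Mir196a-1, Mir10a, Mir196a-2, Mir615, Mir10b and Mir196b were overlapped by no CTCF or SMC1A region of any list. The nearest CTCF region was 734 bp from Mir196b, 1048 bp from Mir615, 1244 bp from Mir10a, 3249 bp from Mir196a-1, 6608 bp from Mir196a-2 and 9798 bp from Mir10b.

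Among the long non-coding RNA genes of the clusters, Hoxd3os1, over Hoxd3, and 4930445N08Rik, next to Lnpk, were overlapped by SMC1A regions of all 4 lists and CTCF regions of all 3. Hoxb5os, Hoxaas3 and Gm38462 were overlapped by CTCF regions of all 3 lists and by no SMC1A region of all 4. Hottip, next to Hoxa13, had 1 CTCF region of 1 list over its body, and Hotair, in Hoxc, had none within 18594 bp. Haglr, between Hoxd3 and Hoxd1, lay 32150 bp from the nearest CTCF region.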
